A study of Mus musculus with 18 samples.

Results

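The translation initiation factors of mouse were followed here as RNA and as ribosome footprints in the cerebellum of wild-type mice and of 2 mutants that lack a GTPase of the translation machinery. A gene was a member when its symbol began with Eif and a digit from 1 to 6 and it had at least 1 protein-coding transcript. Symbols that began with *Eif2ak* (kinases), *Eif4ebp* (eIF4E binding proteins) or *Eif5a* (an elongation factor) and the Y-linked *Eif2s3y* were left out. The rule gave 45 of the 54752 genes in the RNA data, and all 45 were among the 22523 genes of the footprint data. By complex, these were 5 genes of the eIF1 group, 3 of eIF2, 2 with eIF2-like roles, 5 of eIF2B, 14 of eIF3, 3 of eIF4A, 2 of eIF4B and eIF4H, 5 of eIF4E, 3 of eIF4G, and 1 each of eIF5, eIF5B and eIF6. Genes were grouped by symbol, so a group can hold relatives whose role differs from that of the factor.

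Initiation begins when eIF2, loaded with GTP and initiator tRNA, joins the small ribosomal subunit together with eIF1, eIF1A, eIF3 and eIF5. The cap-binding eIF4E, the scaffold eIF4G and the helicase eIF4A bring this assembly to an mRNA, and scanning for the start codon ends with GTP hydrolysis on eIF2 and joining of the large subunit through eIF5B. The exchange factor eIF2B then reloads eIF2 with GTP, a step that is slowed when stress kinases phosphorylate the alpha subunit of eIF2, and mutations of eIF2B in people cause a disease of white matter and cerebellum.

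The study compared mice without GTPBP1 or GTPBP2, related GTPases that act on stalled ribosomes, with C57BL/6J (B6J) mice at 3 weeks of age, and mice of both sexes were used. The *Gtpbp1* allele of B6J.*Gtpbp1*-/- is a PGK-Neo knockout that lacks exon 4 and some of exon 3, bred onto B6J, while B6J-*Gtpbp2*-/- mice carry the nmf205 point mutation, which alters splicing. All 3 genotypes share the B6J mutation of the brain-specific arginine tRNA gene *n-Tr20*. Each genotype had 3 poly(A) RNA libraries and 3 ribosome footprint libraries, 18 in all, with 37794333 to 52114145 estimated counts for RNA (median 49293902) and 3630823 to 10442573 counts for footprints (median 6281637). All RNA libraries carried the label of 1 batch and all footprint libraries that of another, so assay and batch cannot be told apart. Values below are CPM (counts scaled to a common library total) after TMM normalisation, given for replicates 1, 2 and 3 in that order, and a gene was called at an adjusted p of 0.05 or less by the quasi-likelihood test of edgeR over all genes. SE stands for the size of the log2 fold change divided by the square root of F, and ± after a mean is the SD over 3 replicates.

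The 2 mutated genes were read first as a check of the labels. *Gtpbp1* RNA stood at 71.0, 77.8 and 66.7 CPM in B6J, 44.0, 41.7 and 43.9 in B6J.*Gtpbp1*-/-, and 58.7, 72.2 and 65.7 in B6J-*Gtpbp2*-/-. The 3 B6J.*Gtpbp1*-/- libraries lay below all others, with a log2 fold change from B6J of -0.73 ± 0.0818 SE (adjusted p = 5.94e-05). Its footprints were at 73.6, 117 and 84.9 CPM in B6J against 32.0, 25.5 and 35.6 in B6J.*Gtpbp1*-/-. *Gtpbp2* RNA read 85.9, 74.0 and 88.1 CPM in B6J and 65.5, 75.4 and 72.7 in B6J-*Gtpbp2*-/-, where the groups overlapped and the gene was not called (log2 fold change -0.22 ± 0.0925 SE, adjusted p = 0.19). *Gtpbp2* footprints were 44.8, 36.1 and 38.5 CPM in B6J and 28.9, 26.4 and 7.54 in B6J-*Gtpbp2*-/-, all 3 mutant values below all 3 of B6J, without a call (adjusted p = 0.321). In TPM the *Gtpbp1* RNA of B6J.*Gtpbp1*-/- (34.5, 35.1 and 41.1) overlapped B6J (43.5, 38.4 and 40.4), and the *Gtpbp2* RNA of B6J-*Gtpbp2*-/- (127, 145 and 151) was above B6J (114, 91.7 and 99.0), so RNA on this scale did not mark the mutants.

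Some libraries stood apart from the others of their group in the values of the initiation factors. In RNA, the members summed to 6378 CPM in B6J-*Gtpbp2*-/- replicate 1 but to 7189 and 7193 in replicates 2 and 3. This library also differed from them in the RNA of oligodendrocyte markers (9993 against 7458 and 7704 CPM), erythroid markers (224 against 998 and 552) and *Aqp4* of astrocytes (401 against 724 and 663). In footprints, B6J.*Gtpbp1*-/- replicate 3 had the lowest sum, 4250.4 CPM, against 5738 and 4791 in the other two. The same library also differed from them in the Purkinje cell sum (5432 against 8263 and 9583 CPM) and in that of bone and muscle (2634 against 1567 and 1366). B6J footprint replicate 2 was low for *Eif5b* (42.5 CPM against 72.1 and 61.8) and for the summed Purkinje cell markers (4347 CPM against 7036 and 9244). The Y-linked *Ddx3y* and *Uty* marked B6J replicate 2 and B6J.*Gtpbp1*-/- replicates 1 and 2 as male in RNA, and B6J replicates 1 and 2 and B6J.*Gtpbp1*-/- replicate 1 as male in footprints. All 6 libraries of B6J-*Gtpbp2*-/- read as female, so RNA and footprint libraries of the same number did not all come from the same mouse, and sex was not balanced over the genotypes.

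Markers of the cerebellar cell types moved with genotype, and their part in the results on initiation factors was not tested. Of 31 markers, 30 were tested in RNA, where 18 were called in B6J.*Gtpbp1*-/- (6 higher, 12 lower; 60% against 13.8% of all genes) and 15 in B6J-*Gtpbp2*-/- (6 higher, 9 lower; 50% against 8.63%). In footprints 2 of 31 were called in B6J.*Gtpbp1*-/-, both higher (6.45% against 0.745%), and 7 of 29 in B6J-*Gtpbp2*-/-, 2 higher and 5 lower (24.1% against 2.94%). The 6 granule neuron markers, to which *Cbln3* gave the most counts in each library, summed to 5298, 5571 and 5527 CPM of RNA in B6J, 3402, 3341 and 3887 in B6J.*Gtpbp1*-/-, and 3602, 3870.2 and 3322 in B6J-*Gtpbp2*-/-. The 4 microglia markers, with *Csf1r* giving the most counts, summed to 64.9, 67.4 and 69.6 CPM in B6J, 137, 119.6 and 115 in B6J.*Gtpbp1*-/-, and 123, 118 and 128 in B6J-*Gtpbp2*-/-. Both sums separated B6J from the mutants without overlap. In footprints the granule neuron sums were 2771, 4705 and 3478 CPM in B6J, 2636, 1875 and 2729 in B6J.*Gtpbp1*-/-, and 1739.8, 1461 and 1627 in B6J-*Gtpbp2*-/-. The 4 Purkinje cell markers, with *Car8* giving the most counts, summed in RNA to 4007, 4257 and 3861 CPM in B6J, 3168, 2933 and 3670.3 in B6J.*Gtpbp1*-/-, and 3018, 3289 and 2745 in B6J-*Gtpbp2*-/-. Their footprints were not lower in the mutants as a group, at 7036, 4347 and 9244 CPM in B6J, 8263, 9583 and 5432 in B6J.*Gtpbp1*-/- (overlapping B6J), and 10118, 9678 and 9375 in B6J-*Gtpbp2*-/- (all above it). RNA sums of the other groups ran from 2595 to 3422 CPM for Bergmann glia and astrocytes (*Slc1a3* most abundant per length), 5947 to 9993 for oligodendrocytes (*Mbp*), 42.2 to 76.4 for endothelium (*Cldn5*) and 224 to 1195 for erythroid cells (*Hbb-bs*). Endothelium was above B6J (42.2 to 44.1 CPM of RNA) in every library of B6J.*Gtpbp1*-/- (55.5 to 64.6) and B6J-*Gtpbp2*-/- (56 to 76.4), and in footprints it had 74.9 to 121, 199 to 292 and 207 to 265. Oligodendrocyte RNA was below B6J (8137 to 9493) in B6J.*Gtpbp1*-/- (5947 to 6981), and erythroid RNA was above B6J (512 to 918) there (969 to 1195), while B6J-*Gtpbp2*-/- overlapped B6J in both. Within the astrocyte group *Slc1a3* fell in both mutants (log2 -0.45 and -0.44), whereas *Gfap* rose, from 156 to 176 CPM in B6J to 366 to 528 in B6J.*Gtpbp1*-/- and 331 to 450.4 in B6J-*Gtpbp2*-/-. Footprints of bone and muscle markers were 273 to 879 CPM in B6J, 473 to 971 in B6J-*Gtpbp2*-/- and 1366 to 2634 in B6J.*Gtpbp1*-/-, while their RNA overlapped. In RNA the 1 marker with values of 0 was *Myh4* of bone and muscle, at 0 in 5 of 9 libraries. In bulk tissue, fewer cells of a type and less RNA per cell cannot be told apart.

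The members spanned a wide range of levels in B6J. Per transcript length, in TPM (transcript counts divided by length and scaled to a common total), the highest mean was that of the helicase *Eif4a2* (958 ± 86.5 TPM, n = 3), then *Eif4g2* (545 ± 24.4), a relative of eIF4G without the eIF4E binding site, and *Eif1* (508 ± 42.3), which guards start codon choice. Libraries of *Eif4g2* (519 to 567 TPM) and *Eif1* (475 to 556) overlapped, so no order was read between them. The germ-cell relative of eIF4E, *Eif4e1b*, was lowest at 1.32 ± 1.43 TPM, and it had 0 footprints in all 9 libraries. Above it came *Eif4e3* (14.9 ± 1.10 TPM) and *Eif1ad* (17.3 ± 0.65 TPM). Within eIF2, whose subunits work in equal number, *Eif2s3x* stood at 103 ± 15.0 TPM and *Eif2s2* at 91.5 ± 5.91, closer than their spread, while *Eif2s1* stood at 31.3 ± 0.269. Footprints per kilobase of coding sequence were at 26.8 ± 4.94 for *Eif2s3x*, 39.7 ± 4.06 for *Eif2s2* and 39.9 ± 0.986 CPM per kilobase for *Eif2s1*, the last 2 within their spread. These 3 genes share much coding sequence with other sites, as given below, so no order was read from them. The highest footprint densities belonged to *Eif4a2* (407 ± 15.0), *Eif4h* (399 ± 34.9) and *Eif1b* (348 ± 38.7), of which the first 2 did not differ beyond their spread. Among windows of coding sequence, counted as given below, the share also found elsewhere was 40.9% for *Eif4a2*, 0.42% for *Eif4h* and 0.968% for *Eif1b*. It was 100% for *Eif1*. Because this share differed so much between members, the densities are given as counted and not as an order of the members. The highest and lowest levels were named because they lay at the ends of the range, which was known only once the values were seen.

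All members together made up 6227, 6438 and 6339 CPM of RNA in B6J, 6735, 7046 and 7494 in B6J.*Gtpbp1*-/-, and 6378, 7189 and 7193 in B6J-*Gtpbp2*-/-. The 3 B6J.*Gtpbp1*-/- sums lay above all of B6J, whereas B6J-*Gtpbp2*-/- replicate 1 fell among the B6J values. In footprints the sums were 4531, 4475 and 4656 CPM in B6J, 5738, 4791 and 4250.4 in B6J.*Gtpbp1*-/-, and 5527, 4898 and 4863 in B6J-*Gtpbp2*-/-. There all 3 B6J-*Gtpbp2*-/- sums exceeded B6J, and B6J.*Gtpbp1*-/- replicate 3 was the lowest of the 9. Tests between genotypes used counts and not TPM, because on that scale the median gene was itself higher by 0.20 (log2) in B6J.*Gtpbp1*-/- and by 0.18 in B6J-*Gtpbp2*-/- than in B6J. The median member was higher by 0.27 and 0.26 on it.

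The RNA comparison of B6J.*Gtpbp1*-/- with B6J asked which initiation factors changed in level without GTPBP1. Of the 45 members, all tested, 13 were called (28.9%), against 13.8% of the 24577 genes tested. Of these, 10 rose (*Eif1*, *Eif1a*, *Eif1ad*, *Eif2s2*, *Eif3a*, *Eif3c*, *Eif3d*, *Eif5*, *Eif5b* and *Eif6*) and 3 fell (*Eif1b*, *Eif2d* and *Eif4a1*). The median log2 fold change of the members was 0.08 (quartiles -0.08 and 0.24), beside 0.03 for all genes, so most members stayed near the level of B6J while *Eif2s2* and *Eif3c* stood far out. Leaving out single libraries took the count to 6 without B6J.*Gtpbp1*-/- replicate 2 (against 8% of all genes), and to 7 without B6J.*Gtpbp1*-/- replicate 3, B6J replicate 1 or B6J replicate 2 (against 10.4%, 9.68% and 10.5%). With sex as a covariate it was 8 (against 9.36% of all genes), and with an offset for effective transcript length 7 (against 9.06%).

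For GTPBP2 the RNA comparison of B6J-*Gtpbp2*-/- with B6J put the same question, with the same B6J libraries as controls. Here 3 of 45 members were called (6.67%), against 8.63% of the 24859 genes tested: *Eif1*, *Eif2s2* and *Eif3c*, all higher. The share of members called was near that of all genes, and the median of the members was 0.07 beside 0.03 for all genes. The count was 2 without B6J replicate 1, 2 or 3 (against 3.92%, 4.39% and 8.9% of all genes) or without B6J-*Gtpbp2*-/- replicate 2 or 3 (against 5.67% and 4.09%). Without B6J-*Gtpbp2*-/- replicate 1, the library with the low sum of initiation factors, it was 11 (against 9.81% of all genes), and DESeq2 on all 6 libraries called 10 (against 13.7% of all genes).

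**Figure D1:**
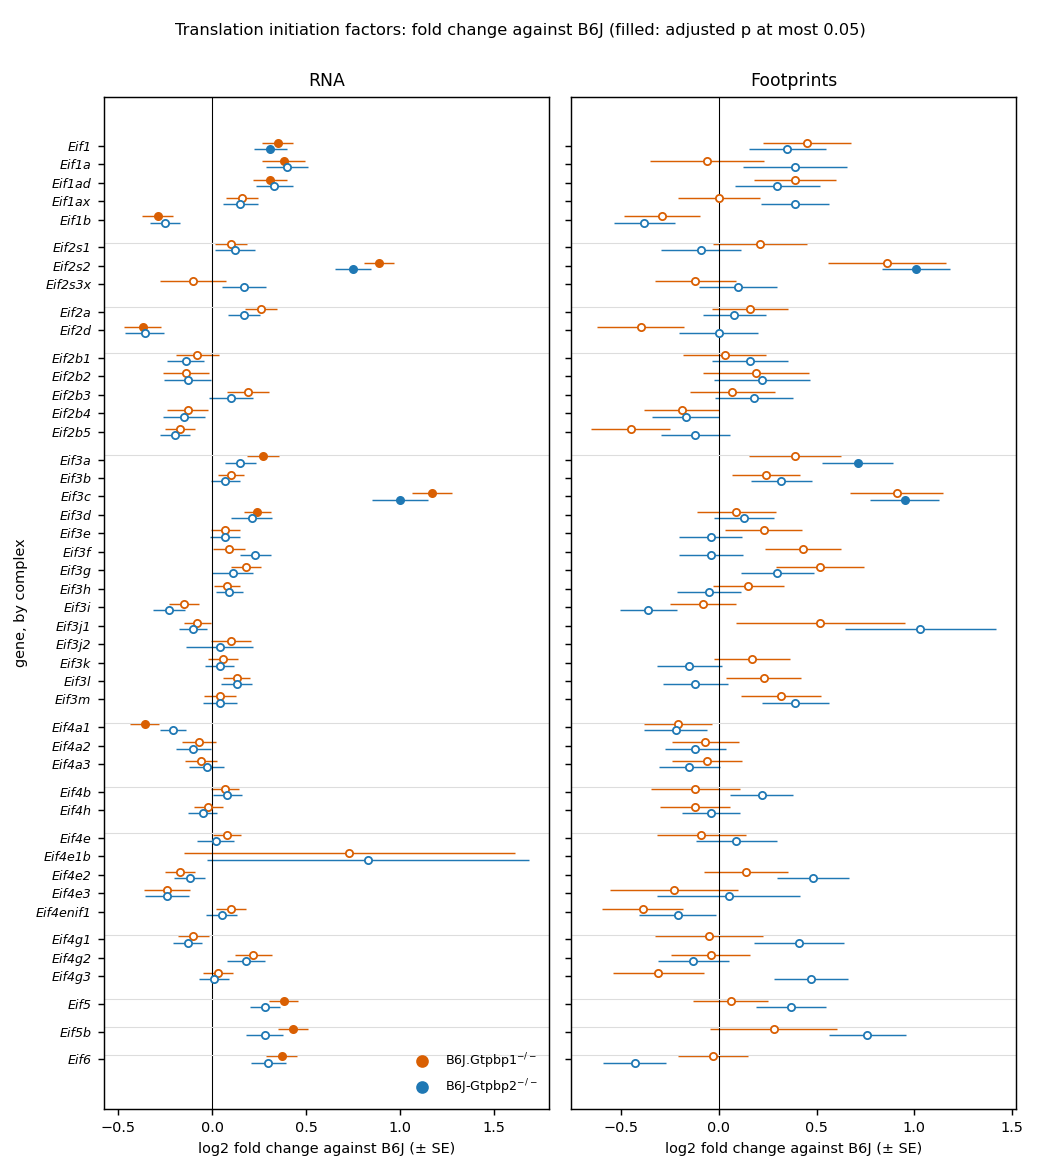
Log2 fold change from B6J of each member, by complex, in RNA and in footprints of B6J.*Gtpbp1*-/- and B6J-*Gtpbp2*-/- (points; bars are SE, |log2 fold change| divided by the square root of F; filled points were called). *Eif2s2* and *Eif3c* stand above the other called members in RNA of both mutants, at 0.89 and 1.17 in B6J.*Gtpbp1*-/- and 0.75 and 1.00 in B6J-*Gtpbp2*-/-.

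Of the 3 subunits of eIF2, which carries the initiator tRNA, the beta subunit *Eif2s2* changed. *Eif2s2* RNA was at 103, 102 and 114 CPM in B6J, 182, 206 and 203 in B6J.*Gtpbp1*-/-, and 155, 192 and 189 in B6J-*Gtpbp2*-/-. Every mutant library lay above every B6J library, and the lowest mutant value came from B6J-*Gtpbp2*-/- replicate 1. The rise was 1.86-fold in B6J.*Gtpbp1*-/- (log2 0.89 ± 0.0804 SE, adjusted p = 1.05e-05), a change exceeded by 10.7% of the genes tested, and 1.69-fold in B6J-*Gtpbp2*-/- (log2 0.75 ± 0.0962 SE, adjusted p = 8.30e-04).

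The alpha subunit *Eif2s1*, the target of the stress kinases, stood at 47.6, 49.2 and 48.8 CPM in B6J, 47.0, 53.3 and 55.6 in B6J.*Gtpbp1*-/-, and 44.0, 55.5 and 58.9 in B6J-*Gtpbp2*-/-. Both mutants overlapped B6J, and the gene was not called (log2 0.10 ± 0.0855 SE and 0.12 ± 0.106 SE). The gamma subunit *Eif2s3x*, which binds GTP and tRNA and is X-linked, was at 205, 152 and 209 CPM in B6J, 156, 154 and 218 in B6J.*Gtpbp1*-/-, and 197, 216 and 223 in B6J-*Gtpbp2*-/-. Its 3 low values, 152, 156 and 154 CPM, were those of the 3 libraries that read as male, and no male library reached a female one. The Y-linked copy *Eif2s3y* was at 55.4, 75.1 and 65.1 CPM in these 3 and at 0.281 CPM or less in the other 6. *Eif2s3x* was not called in B6J.*Gtpbp1*-/- (log2 -0.10 ± 0.176 SE, adjusted p = 0.786) or in B6J-*Gtpbp2*-/- (log2 0.17 ± 0.118 SE, adjusted p = 0.464).

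None of the 5 subunits of eIF2B, the exchange factor that reloads eIF2, was called in RNA by edgeR in either mutant, with 0 at an unadjusted p under 0.05 in B6J.*Gtpbp1*-/- (against 26.3% of all genes), 1 in B6J-*Gtpbp2*-/- (against 22.5%) and 0 called by DESeq2 in both. Here and below, a DESeq2 count without a share of all genes beside it was not set against one. Log2 fold changes ran from -0.17 (*Eif2b5*) to 0.19 (*Eif2b3*) with a median of -0.13 in B6J.*Gtpbp1*-/-, and from -0.20 (*Eif2b5*) to 0.10 (*Eif2b3*) with a median of -0.14 in B6J-*Gtpbp2*-/-. The catalytic subunit *Eif2b5* read 60.1, 62.7 and 56.7 CPM in B6J, 54.7, 49.7 and 55.2 in B6J.*Gtpbp1*-/-, and 50.5, 54.5 and 51.6 in B6J-*Gtpbp2*-/-. All 6 mutant values lay below the lowest of B6J, by too little for a call (adjusted p = 0.201 and 0.167). Summed over its 5 genes, eIF2B made up 166, 169 and 179.6 CPM in B6J, 161, 155 and 162 in B6J.*Gtpbp1*-/-, and 151, 162 and 155 in B6J-*Gtpbp2*-/-. The order of these sums turned around on the TPM scale, at 181 ± 7.71, 211 ± 15.8 and 204 ± 6.57, on which the median gene was also higher in both mutants.

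The large complex eIF3, the scaffold that holds the other factors on the small subunit, had 3 of 14 members called in B6J.*Gtpbp1*-/- RNA, all higher (21.4% against 13.8% of all genes), and 1 in B6J-*Gtpbp2*-/- (7.14% against 8.63%). *Eif3c*, a core subunit at the contact with eIF1 and eIF5, stood at 187, 193 and 179.7 CPM in B6J, 367, 394 and 495 in B6J.*Gtpbp1*-/-, and 274, 432 and 413 in B6J-*Gtpbp2*-/-. No mutant library overlapped B6J, although B6J-*Gtpbp2*-/- replicate 1 was well under its 2 companions. *Eif3c* rose 2.24-fold in B6J.*Gtpbp1*-/- (log2 1.17 ± 0.106 SE, adjusted p = 1.18e-05) and 2.00-fold in B6J-*Gtpbp2*-/- (log2 1.00 ± 0.151 SE, adjusted p = 0.00395). It had the largest rise of the 45 members in RNA of both mutants.

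*Eif3a*, the largest subunit, was at 229, 251 and 234 CPM in B6J, 266, 283 and 313 in B6J.*Gtpbp1*-/-, and 243, 273 and 278 in B6J-*Gtpbp2*-/-. B6J.*Gtpbp1*-/- lay above B6J without overlap, whereas B6J-*Gtpbp2*-/- overlapped it. It rose in B6J.*Gtpbp1*-/- (log2 0.27 ± 0.0836 SE, adjusted p = 0.0453), a call that was lost without any 1 library other than B6J.*Gtpbp1*-/- replicate 1 (adjusted p 0.0658 to 0.184). With sex as a covariate or the offset for effective length, the *Eif3a* call was lost too. *Eif3d*, a subunit that can itself bind the cap, was at 74.1, 71.3 and 67.3 CPM in B6J, 81.5, 84.8 and 84.8 in B6J.*Gtpbp1*-/-, and 67.9, 86.5 and 92.4 in B6J-*Gtpbp2*-/-. Again B6J.*Gtpbp1*-/- did not overlap B6J, and B6J-*Gtpbp2*-/- replicate 1 did. Its call in B6J.*Gtpbp1*-/- (log2 0.24 ± 0.0717 SE, adjusted p = 0.0421) was lost without any 1 of the 6 libraries (adjusted p 0.073 to 0.159). The *Eif3d* call was also lost with all 9 libraries fitted, with sex as a covariate and with the offset for effective length. *Eif3d* starts at chr15:77958998 and *Gtpbp1* at chr15:79690845, and the knockout was made on a mixed background. For *Eif3d*, DNA linked to that allele and loss of GTPBP1 cannot be told apart. The 14 members had a median log2 fold change of 0.10 in B6J.*Gtpbp1*-/-, with 12 above 0 and the lowest at -0.15 (*Eif3i*), and a median of 0.08 in B6J-*Gtpbp2*-/-, from -0.23 to 1.00. Summed over its genes, eIF3 came to a mean of 1174 ± 23.2 CPM for B6J, 1494 ± 85.9 for B6J.*Gtpbp1*-/- and 1420.3 ± 148 for B6J-*Gtpbp2*-/-, and much of the difference was *Eif3c*.

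The eIF1 group was taken by symbol around eIF1 and eIF1A, which keep the small subunit open for scanning and check the start codon. It had 4 of 5 members called in B6J.*Gtpbp1*-/- RNA (80% against 13.8% of all genes) and 1 in B6J-*Gtpbp2*-/- (20% against 8.63%). *Eif1* was at 299, 333 and 299 CPM in B6J, 389, 379 and 419 in B6J.*Gtpbp1*-/-, and 362, 414 and 379 in B6J-*Gtpbp2*-/-. All mutant libraries lay above all of B6J. It rose by log2 0.35 ± 0.0825 SE (adjusted p = 0.0124) in B6J.*Gtpbp1*-/- and by 0.31 ± 0.0869 SE (adjusted p = 0.0493) in B6J-*Gtpbp2*-/-. The first call was lost without B6J replicate 1 (adjusted p = 0.0817). The second was lost without B6J replicate 1, 2 or 3 (0.181, 0.066 and 0.0901) and without B6J-*Gtpbp2*-/- replicate 2 or 3 (0.182 and 0.102).

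The paralog *Eif1b* was lower, at 56.9, 61.8 and 57.6 CPM in B6J, 48.5, 51.5 and 44.1 in B6J.*Gtpbp1*-/-, and 52.2, 48.1 and 48.1 in B6J-*Gtpbp2*-/-. No mutant library reached the lowest B6J value. It fell by 0.29 on the log2 scale in B6J.*Gtpbp1*-/- (SE 0.0839, adjusted p = 0.0355) and was not called in B6J-*Gtpbp2*-/- (log2 -0.25 ± 0.0806 SE, adjusted p = 0.0827). Its call was lost without any 1 library other than B6J replicate 3 (adjusted p 0.0539 to 0.124). Upper quartile scaling and the offset for effective length also removed this call.

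*Eif1a*, 1 of 2 genes for eIF1A, had 24.9, 31.9 and 29.8 CPM in B6J, 34.2, 42.4 and 36.0 in B6J.*Gtpbp1*-/-, and 35.6, 36.4 and 42.3 in B6J-*Gtpbp2*-/-. Its mutant libraries were all above B6J, with a call in B6J.*Gtpbp1*-/- (log2 0.38 ± 0.114 SE, adjusted p = 0.0424) and none in B6J-*Gtpbp2*-/- (log2 0.40 ± 0.112 SE, adjusted p = 0.0504). That call was lost without B6J replicate 1 or 2 (adjusted p = 0.174 and 0.0508) and without B6J.*Gtpbp1*-/- replicate 2 or 3 (0.229 and 0.0706). It was also lost with sex as a covariate and with the offset for effective length. *Eif1ad*, named for its likeness to eIF1A, had 24.9, 23.8 and 23.8 CPM in B6J, 29.1, 30.7 and 29.8 in B6J.*Gtpbp1*-/-, and 28.5, 32.7 and 29.8 in B6J-*Gtpbp2*-/-. The groups did not overlap, and the rise in B6J.*Gtpbp1*-/- (log2 0.31 ± 0.0911 SE, adjusted p = 0.041) lost its call without any 1 of the 6 libraries (adjusted p 0.0587 to 0.169). Sex as a covariate and the offset for effective length also removed the *Eif1ad* call. The X-linked *Eif1ax* was not called, at log2 0.16 in B6J.*Gtpbp1*-/- and 0.15 in B6J-*Gtpbp2*-/-.

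Of the 2 proteins that can bring a tRNA to the ribosome in place of eIF2, *Eif2d* fell in B6J.*Gtpbp1*-/-. *Eif2d* RNA was at 32.2, 33.7 and 38.7 CPM in B6J, 27.8, 26.4 and 27.1 in B6J.*Gtpbp1*-/-, and 28.9, 26.7 and 25.7 in B6J-*Gtpbp2*-/-. All 6 mutant values lay under B6J, and the log2 fold changes were -0.37 ± 0.0981 SE (adjusted p = 0.0246) and -0.36 ± 0.104 SE (adjusted p = 0.0528). The call in B6J.*Gtpbp1*-/- was lost without any 1 library other than B6J replicate 1 (adjusted p 0.0507 to 0.113). Upper quartile scaling, sex as a covariate and the use of coding transcripts alone also removed it. *Eif2a* had log2 0.26 ± 0.0842 SE in B6J.*Gtpbp1*-/- (adjusted p = 0.0624) and was the 1 member that DESeq2 called there and edgeR did not.

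Among the 13 genes grouped by symbol under eIF4A, eIF4B and eIF4H, eIF4E and eIF4G, 1 was called in B6J.*Gtpbp1*-/- RNA, where 13.8% of all genes were called. It was a fall. The helicase *Eif4a1* was at 204, 197 and 190.0 CPM in B6J, 158, 162 and 142 in B6J.*Gtpbp1*-/-, and 168, 172 and 173 in B6J-*Gtpbp2*-/-. Every mutant library lay below B6J, and B6J.*Gtpbp1*-/- lay below B6J-*Gtpbp2*-/-. It fell by 0.36 on the log2 scale in B6J.*Gtpbp1*-/- (SE 0.0759, adjusted p = 0.00696) and was not called in B6J-*Gtpbp2*-/- (log2 -0.21 ± 0.0704 SE, adjusted p = 0.101). With an offset for effective transcript length the call was lost, at log2 -0.27 (adjusted p = 0.0667).

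Its paralog *Eif4a2*, the most abundant member per length, was at 602, 608 and 711 CPM in B6J, 575, 638 and 617 in B6J.*Gtpbp1*-/-, and 582, 592 and 624 in B6J-*Gtpbp2*-/-. The groups overlapped (log2 -0.07 ± 0.092 SE and -0.10 ± 0.0916 SE). The cap-binding *Eif4e* had 111, 116 and 126 CPM in B6J, 119, 127 and 128 in B6J.*Gtpbp1*-/-, and 107, 113 and 137 in B6J-*Gtpbp2*-/-, also with overlap (log2 0.08 ± 0.0758 SE and 0.02 ± 0.0984 SE). The scaffold *Eif4g1* was at 349, 367 and 339 CPM in B6J, 306, 335 and 344 in B6J.*Gtpbp1*-/-, and 319, 325 and 321 in B6J-*Gtpbp2*-/-. Here B6J-*Gtpbp2*-/- lay below B6J and B6J.*Gtpbp1*-/- overlapped it, without a call (log2 -0.10 ± 0.0808 SE and -0.13 ± 0.0762 SE). The 5 members of eIF4E ran from -0.24 (*Eif4e3*) to 0.73 (*Eif4e1b*, close to 0 CPM) in B6J.*Gtpbp1*-/-, and the 3 of eIF4G from -0.10 to 0.22. Neither group nor the pair of eIF4B and eIF4H had a call by edgeR in RNA, DESeq2 called 0 of these 10 genes, and 1 in B6J.*Gtpbp1*-/- and 0 in B6J-*Gtpbp2*-/- had an unadjusted p under 0.05, beside 26.3% and 22.5% of all genes.

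*Eif5*, *Eif5b* and *Eif6*, each the only gene of its group, were called higher in B6J.*Gtpbp1*-/- RNA, where 13.8% of all genes were called. In B6J-*Gtpbp2*-/-, where 8.63% of all genes were called, they had positive log2 fold changes without a call. They stand together here as called genes, not as a tested set. *Eif5*, which triggers GTP hydrolysis by eIF2, was at 318, 333 and 328 CPM in B6J, 417, 419 and 441 in B6J.*Gtpbp1*-/-, and 371, 403 and 414 in B6J-*Gtpbp2*-/-. Both mutants lay above B6J, and B6J.*Gtpbp1*-/- lay above B6J-*Gtpbp2*-/-. The log2 fold changes were 0.38 ± 0.0768 SE (adjusted p = 0.00483) and 0.28 ± 0.0799 SE (adjusted p = 0.0539). *Eif5b*, the GTPase that joins the subunits, was at 121, 133 and 123 CPM in B6J, 153, 175 and 181 in B6J.*Gtpbp1*-/-, and 129, 166 and 161 in B6J-*Gtpbp2*-/-. Only B6J-*Gtpbp2*-/- replicate 1 fell within the range of B6J, with log2 0.43 ± 0.0808 SE (adjusted p = 0.00301) and 0.28 ± 0.0972 SE (adjusted p = 0.111).

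*Eif6*, which keeps free large subunits from joining too early, was at 32.7, 32.1 and 30.5 CPM in B6J, 39.9, 41.8 and 41.6 in B6J.*Gtpbp1*-/-, and 35.0, 41.4 and 40.6 in B6J-*Gtpbp2*-/-. All mutant values lay above B6J, with B6J-*Gtpbp2*-/- replicate 1 the nearest to it. It rose in B6J.*Gtpbp1*-/- (log2 0.37 ± 0.0838 SE, adjusted p = 0.01) and was not called in B6J-*Gtpbp2*-/- (log2 0.30 ± 0.0949 SE, adjusted p = 0.0802). The first call was lost without B6J.*Gtpbp1*-/- replicate 2 (adjusted p = 0.0598) and with the offset for effective length (0.0586).

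**Figure D2:**
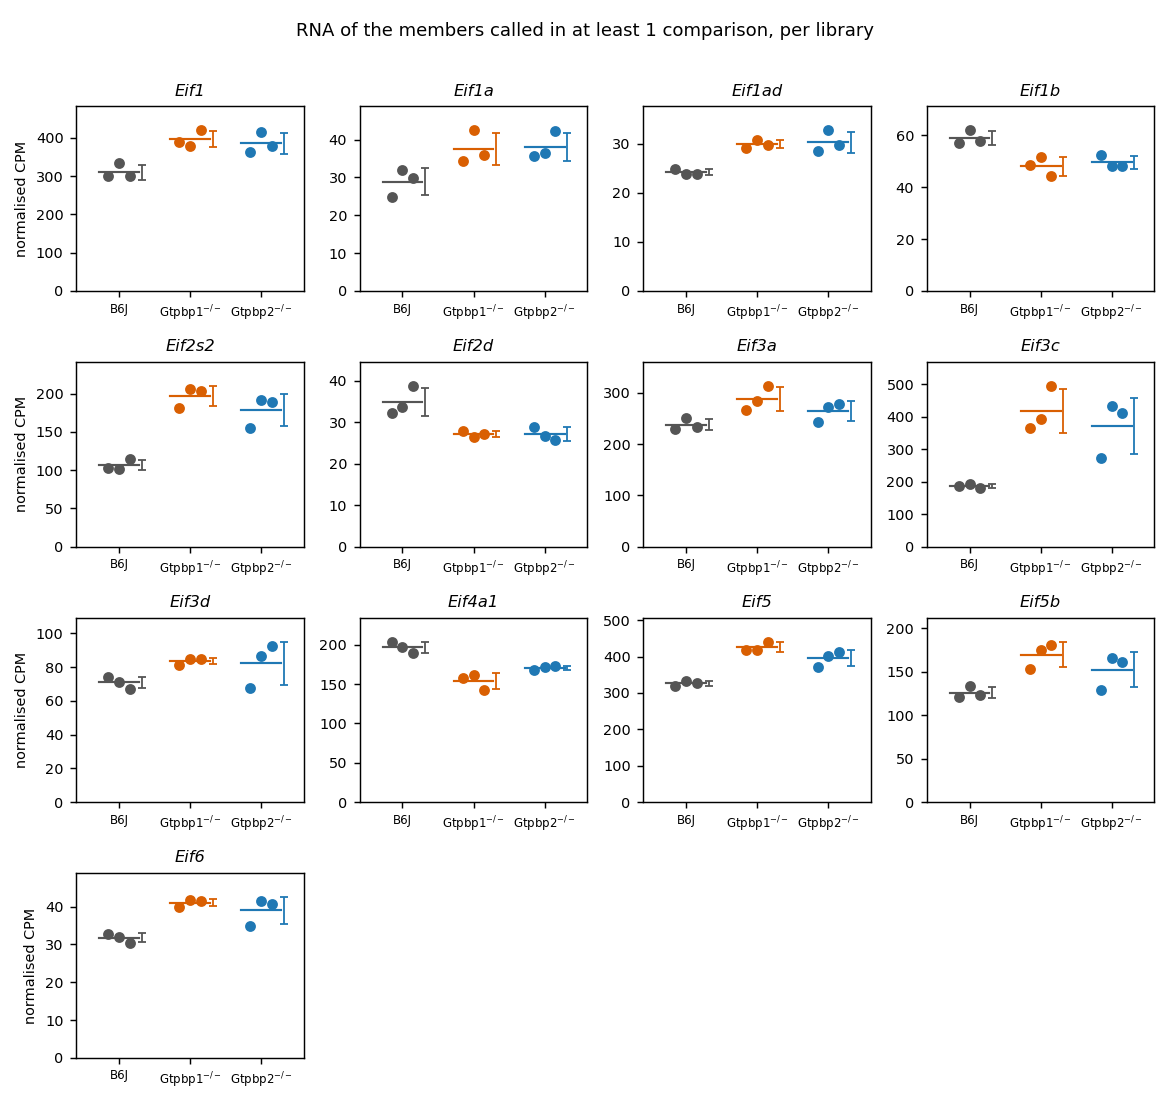
RNA level in CPM (vertical axes, each from 0) of the 13 members called in RNA, with a point per library of each genotype (replicates 1 to 3 from left to right), a line at the mean and a bracket of 1 SD on either side. *Eif2s2* and *Eif3c* stand higher and *Eif4a1* lower in every mutant library than in any B6J library.

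Set against each other, the 2 mutants asked whether loss of GTPBP1 and of GTPBP2 left different levels of initiation factors. In RNA, 0 of 45 members were called by edgeR, against 0.0595% of the 25190 genes tested, with 0 members at an unadjusted p under 0.05 (against 3.57% of all genes) and 0 called by DESeq2. The members' median log2 difference of B6J.*Gtpbp1*-/- from B6J-*Gtpbp2*-/- was 0.02, beside 0.00 for all genes, and it ran from -0.27 (*Eif2s3x*) to 0.17 (*Eif3c*). For *Eif2s2* it was 0.14 ± 0.0946 SE, for *Eif3c* 0.17 ± 0.182 SE, and for *Eif4a1* -0.15 ± 0.072 SE. A gene called in 1 mutant and not in the other was thus not shown to differ between them.

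Footprints asked whether ribosomes on the mRNAs of these factors followed the same pattern. The study reported pausing of ribosomes at AGA codons in both mutants, which a count per gene cannot tell apart from other footprints. In B6J.*Gtpbp1*-/-, 0 of the 43 members tested were called by edgeR against B6J, where 0.745% of 13956 genes were, with 5 members at an unadjusted p under 0.05 (against 12.6% of all genes) and 1 called by DESeq2 (*Eif3c*). The DESeq2 share of all genes, which is higher than this edgeR share, stands under How the results depend on the processing. In B6J-*Gtpbp2*-/-, 3 of 43 were called (6.98%), *Eif2s2*, *Eif3a* and *Eif3c*, all higher, against 2.94% of 13797 genes. DESeq2 called 4 there, with *Eif5b* added (against 4.75% of all genes). Over the members, the median log2 fold change was 0.06 for B6J.*Gtpbp1*-/- and 0.10 for B6J-*Gtpbp2*-/-, beside 0.01 for all genes in both. The 2 members without enough counts for a test were *Eif3j2* and *Eif4e1b*. Without B6J.*Gtpbp1*-/- replicate 3, 2 members were called in B6J.*Gtpbp1*-/-, *Eif2s2* and *Eif3c* (against 1.32% of all genes). Without B6J-*Gtpbp2*-/- replicate 1, 1 was called in B6J-*Gtpbp2*-/- (against 0.779% of all genes). A term for sex left B6J replicate 3 there as in effect the only control. Its outcome, 0 members called with log2 0.97 for *Eif2s2*, 0.63 for *Eif3c* and 0.51 for *Eif3a*, was therefore not read as an effect of sex.

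*Eif2s2* footprints were at 34.9, 42.7 and 40.5 CPM in B6J, 105, 72.1 and 37.9 in B6J.*Gtpbp1*-/-, and 83.3, 70.1 and 85.3 in B6J-*Gtpbp2*-/-. Replicate 3 of B6J.*Gtpbp1*-/- fell within B6J and the other 5 mutant libraries lay above it. The log2 fold change was 0.86 ± 0.3 SE in B6J.*Gtpbp1*-/- (adjusted p = 0.224) and 1.01 ± 0.174 SE in B6J-*Gtpbp2*-/- (adjusted p = 0.006). *Eif3c* footprints were at 226, 185 and 296 CPM in B6J, 588, 402 and 341 in B6J.*Gtpbp1*-/-, and 504, 434 and 439.6 in B6J-*Gtpbp2*-/-. All 6 mutant libraries lay above B6J, with log2 0.91 ± 0.237 SE (adjusted p = 0.104) and 0.95 ± 0.178 SE (adjusted p = 0.00865). The call in B6J-*Gtpbp2*-/- was lost without its replicate 1 (adjusted p = 0.0746).

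*Eif3a* footprints were at 181, 126 and 190.2 CPM in B6J, 281, 219.9 and 152 in B6J.*Gtpbp1*-/-, and 321, 232 and 267 in B6J-*Gtpbp2*-/-. Replicate 3 of B6J.*Gtpbp1*-/- again lay among B6J, and B6J-*Gtpbp2*-/- lay above it. The log2 fold change was 0.39 ± 0.237 SE (adjusted p = 0.536) in B6J.*Gtpbp1*-/- and 0.71 ± 0.183 SE (adjusted p = 0.0493) in B6J-*Gtpbp2*-/-. The latter call was lost without any 1 library other than B6J replicate 3 (adjusted p 0.0714 to 0.26). *Eif5b* had 72.1, 42.5 and 61.8 CPM of footprints in B6J, 106, 70.5 and 37.4 in B6J.*Gtpbp1*-/-, and 113, 93.2 and 94.4 in B6J-*Gtpbp2*-/-, where it just missed a call (log2 0.76 ± 0.196 SE, adjusted p = 0.0501).

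For the core factors without a call in footprints, the groups overlapped in at least 1 mutant. *Eif2s1* footprints stood at 36.7, 38.5 and 37.8 CPM in B6J, 59.8, 39.5 and 31.6 in B6J.*Gtpbp1*-/-, and 45.6, 31.9 and 29.2 in B6J-*Gtpbp2*-/-. *Eif2b5* footprints stood at 77.6, 69.2 and 57.5 CPM in B6J, 44.1, 47.2 and 58.3 in B6J.*Gtpbp1*-/-, and 65.5, 69.3 and 55.3 in B6J-*Gtpbp2*-/-. Of these, *Eif2b5* had log2 -0.45 ± 0.202 SE in B6J.*Gtpbp1*-/- (adjusted p = 0.378), with replicate 3 inside the range of B6J. *Eif4a1* footprints were at 136, 136 and 117 CPM in B6J, 123, 107 and 105 in B6J.*Gtpbp1*-/-, and 131, 107 and 99.3 in B6J-*Gtpbp2*-/-. *Eif4e* footprints were at 38.7, 61.5 and 37.3 CPM in B6J, 43.8, 45.3 and 40.1 in B6J.*Gtpbp1*-/-, and 44.1, 50.3 and 52.6 in B6J-*Gtpbp2*-/-. For *Eif4e* the B6J range enclosed both mutants, and for *Eif4a1* a B6J library lay within the range of each. *Eif4g1* footprints spread widely, at 260.2, 145 and 173 CPM in B6J, 254, 182 and 119.6 in B6J.*Gtpbp1*-/-, and 281, 304 and 188 in B6J-*Gtpbp2*-/-. By complex, the median log2 fold change in B6J.*Gtpbp1*-/- and B6J-*Gtpbp2*-/- was 0.24 and 0.13 for eIF3, 0.03 and 0.16 for eIF2B, -0.07 and -0.15 for eIF4A, and -0.05 and 0.41 for eIF4G.

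Members called in RNA but not in footprints had the following footprint levels. *Eif1* was at 96.7, 67.6 and 116 CPM in B6J, 152, 106 and 124 in B6J.*Gtpbp1*-/-, and 138, 119.6 and 102 in B6J-*Gtpbp2*-/-, with 1 library of each mutant inside the range of B6J. *Eif1b* was at 112, 135 and 111 CPM in B6J, 105, 110.3 and 76.0 in B6J.*Gtpbp1*-/-, and 96.6, 87.2 and 92.8 in B6J-*Gtpbp2*-/-. For *Eif1b* no mutant library reached B6J, as in RNA, with log2 -0.29 ± 0.196 SE and -0.38 ± 0.156 SE and adjusted p = 0.576 and 0.223. *Eif1a* had 11.6, 13.4 and 9.53 CPM in B6J, 12.3, 12.4 and 8.35 in B6J.*Gtpbp1*-/-, and 17.7, 14.6 and 13.2 in B6J-*Gtpbp2*-/-. *Eif1ad* had 21.7, 20.9 and 24 CPM in B6J, 31.3, 29.6 and 26.6 in B6J.*Gtpbp1*-/-, and 28.9, 21.2 and 31.9 in B6J-*Gtpbp2*-/-. *Eif1a* overlapped B6J in both mutants and *Eif1ad* in B6J-*Gtpbp2*-/-. *Eif2d* footprints read 24.8, 29.5 and 23.8 CPM in B6J, 18.3, 21.9 and 18.9 in B6J.*Gtpbp1*-/-, and 28.8, 27.8 and 22.4 in B6J-*Gtpbp2*-/-, with B6J.*Gtpbp1*-/- under B6J and B6J-*Gtpbp2*-/- overlapping it.

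*Eif3d* footprints read 95.3, 115 and 118 CPM in B6J, 146, 109 and 94.4 in B6J.*Gtpbp1*-/-, and 117, 121 and 124 in B6J-*Gtpbp2*-/-. *Eif5* footprints read 87.7, 100 and 75 CPM in B6J, 97.9, 97.1 and 77.7 in B6J.*Gtpbp1*-/-, and 115, 91.3 and 134 in B6J-*Gtpbp2*-/-. Both genes overlapped B6J in both mutants. The X-linked *Eif2s3x* was at 33.3, 35.5 and 46.6 CPM in B6J, 36.6, 37.2 and 32.7 in B6J.*Gtpbp1*-/-, and 46.6, 43.7 and 35.0 in B6J-*Gtpbp2*-/-. *Eif4a2* was at 481, 518 and 504 CPM in B6J, 529.6, 479 and 418 in B6J.*Gtpbp1*-/-, and 538, 443 and 414 in B6J-*Gtpbp2*-/-. Neither gene separated the genotypes. *Eif3j1*, a loosely bound subunit of eIF3 named for the highest log2 fold change in footprints and chosen after its values were seen, was at 11.0, 3.52 and 14.0 CPM in B6J, 19.2, 13.1 and 8.85 in B6J.*Gtpbp1*-/-, and 21.9, 22.6 and 15.3 in B6J-*Gtpbp2*-/-. Its B6J-*Gtpbp2*-/- libraries lay above B6J without a call (log2 1.03 ± 0.387 SE, adjusted p = 0.196).

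Between the mutants, 0 of 43 members were called in footprints by edgeR, as for 0% of the 14142 genes tested, with 3 members at an unadjusted p under 0.05 (against 10.8% of all genes) and 0 called by DESeq2. The log2 difference of B6J.*Gtpbp1*-/- from B6J-*Gtpbp2*-/- had a median of -0.08 and ran from -0.80 (*Eif4g3*) to 0.45 (*Eif3f*). *Eif4g3*, a second scaffold, was chosen here after its values were seen: it was at 149.8, 133 and 77.7 CPM in B6J.*Gtpbp1*-/- and 233, 245 and 148 in B6J-*Gtpbp2*-/-, overlapping in 1 library (adjusted p = 0.344).

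**Figure D3:**
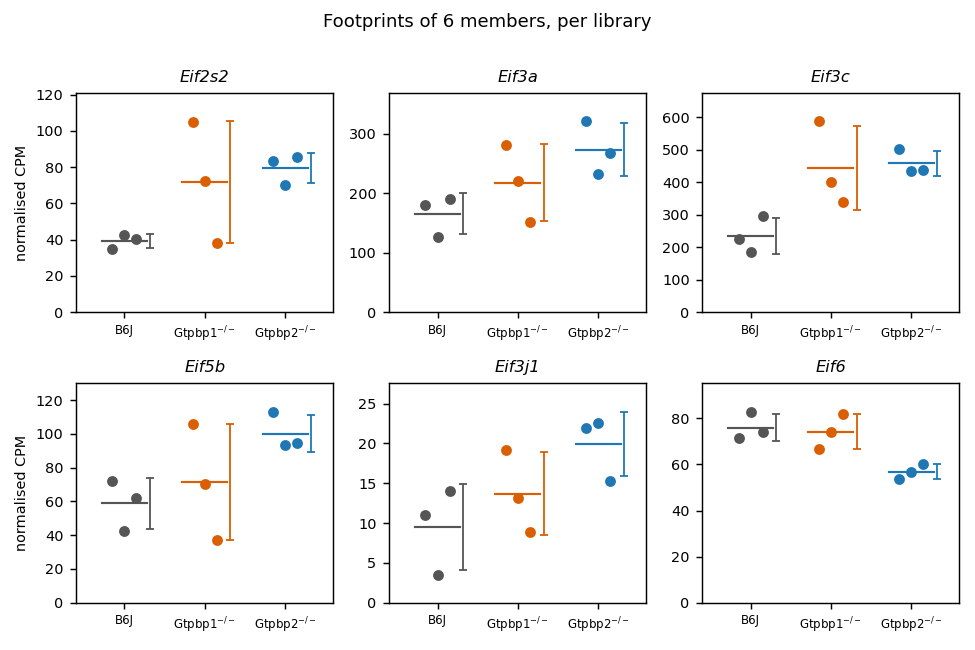
Footprint level in CPM (vertical axes, each from 0) of 6 members, with a point per library of each genotype (replicates 1 to 3 from left to right), a line at the mean and a bracket of 1 SD on either side. *Eif3c* is higher in all 6 mutant libraries than in B6J, and B6J.*Gtpbp1*-/- replicate 3 stands low for *Eif2s2*, *Eif3a* and *Eif5b*.

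Translation efficiency, the change of footprints beyond that of RNA, asked whether ribosome load per mRNA changed. Paused ribosomes count toward this load. By edgeR 0 of 43 members were called in B6J.*Gtpbp1*-/- against B6J, as for 0% of 13086 genes, with 2 at an unadjusted p under 0.05 (against 8.94% of all genes) and 0 by DESeq2. In B6J-*Gtpbp2*-/- against B6J 0 of 43 were called, against 0.00773% of 12931 genes, with 6 at an unadjusted p under 0.05 (against 12% of all genes) and 1 by DESeq2. That 1 was *Eif6*, at log2 -0.72 ± 0.166 SE by edgeR (adjusted p = 0.132), and without B6J footprint replicate 3 edgeR called 1 member, *Eif6*. The share of all genes that DESeq2 called, which is higher than the edgeR share, stands under How the results depend on the processing. For fits with 1 library left out, the range of that share stands there as well. *Eif6* footprints were at 71.4, 82.8 and 73.9 CPM in B6J, 66.9, 74.2 and 81.8 in B6J.*Gtpbp1*-/-, and 53.6, 56.7 and 60.2 in B6J-*Gtpbp2*-/-. Its footprints were thus low in all 3 B6J-*Gtpbp2*-/- libraries while its RNA lay above B6J there. Between the mutants 0 of 43 were called by edgeR, as for 0% of 13292 genes, with 3 at an unadjusted p under 0.05 (against 11.2% of all genes) and 0 by DESeq2. For *Eif2s2* the change in efficiency was log2 -0.03 ± 0.341 SE in B6J.*Gtpbp1*-/- and 0.26 ± 0.181 SE in B6J-*Gtpbp2*-/-. For *Eif3c* it was -0.25 ± 0.28 SE and -0.04 ± 0.245 SE, so the 2 members that stood out in RNA showed no called change in efficiency. The members' medians were 0.00 and 0.02 against B6J and -0.08 between the mutants, beside 0.03, 0.03 and 0.01 for all genes.

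The split of each gene's RNA among its transcripts was read as a description, without a test. The share of *Eif4e* TPM in protein-coding transcripts was 96.5%, 95.2% and 95.4% in B6J, 87.7%, 92.4% and 89.6% in B6J.*Gtpbp1*-/-, and 79.5%, 85.5% and 89.4% in B6J-*Gtpbp2*-/-. Both mutants lay below B6J. For *Eif2b4* the coding share was 93.6%, 82.1% and 88.8% in B6J, 64.8%, 81.2% and 61.6% in B6J.*Gtpbp1*-/-, and 73.4%, 74.5% and 62.9% in B6J-*Gtpbp2*-/-. For *Eif4a1* it was 72.4%, 70.6% and 63.5% in B6J, 59.7%, 62.8% and 63.0% in B6J.*Gtpbp1*-/-, and 59.1%, 62.7% and 59.6% in B6J-*Gtpbp2*-/-. These shares were lower in every mutant library than in B6J, by little for the nearest pairs, and *Eif2b4* was chosen after its values were seen. Of the 45 members only these 3 and *Eif1* showed this, 0 showed the reverse, 9 had 100% in all libraries and 32 showed neither. Over the 16220 genes with a coding transcript and a TPM above 0 in each RNA library, 2.53% showed this, 1.11% the reverse, 29.7% had 100% throughout and 66.6% showed neither. With coding transcripts alone the test called 12 members in B6J.*Gtpbp1*-/- (against 17.2% of all genes), without *Eif2d* (adjusted p = 0.108), and 7 in B6J-*Gtpbp2*-/- (against 10.8%).

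Many initiation factors have processed pseudogenes or close paralogs, and short footprints from these cannot be assigned with certainty. Of all 30-base windows along the coding sequence, the share also found elsewhere was 100% for *Eif1*, 99.7% for *Eif3j1*, 99.2% for *Eif4a1*, 95.1% for *Eif2s3x*, 85.9% for *Eif4e*, 84.4% for *Eif2s2* and 57.2% for *Eif2s1*. The footprint values of these genes are therefore uncertain, those of *Eif2s2* included. For *Eif3c* the share was 13.5%, for *Eif5* 30% and for *Eif6* 14.4%. The share was above 10% for 19 of the 45 members and 0 for 11, with a median of 3.21%.

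Promoter windows were looked at because several members moved together. RefSeq promoters (GRCm38.p6, 250 bases before to 50 after the start) were available for 35 of 45 members (77.8%), too few to read the share of members with a motif against that of all promoters. Both strands were searched for TGATGNAA (C/EBP-ATF response element core), found in *Eif2s3x* alone and in 4.51% of all 27025 promoters. TGACGTCA (cAMP response element) was found in 0 members and 2.03% of promoters. CACGTG (E box) was found in *Eif1b*, *Eif3a*, *Eif3f*, *Eif3k*, *Eif4a1*, *Eif4e*, *Eif4g1* and *Eif4h* and in 8.09% of promoters. CCAAT was found in 11 members and 41.1% of promoters. A start at C followed by 4 pyrimidines was found in *Eif2s3x* and *Eif3f* and in 3.01% of promoters. No window was in the table for *Eif1a*, *Eif2b3*, *Eif3e*, *Eif3h*, *Eif3i*, *Eif3j2*, *Eif4e1b*, *Eif4e3*, *Eif4g2* and *Eif6*. A match is a description, not a site or a cause.

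For 4 members called in RNA, *Eif2s2*, *Eif3c* and *Eif1*, which rose, and *Eif4a1*, which fell, the 100 bases before the outermost start in RefSeq or Gencode follow, 5′ to 3′. Capitals mark CCAAT, which overlaps no other motif here. *Eif2s2* lies at chr2:154892936-154893035 and *Eif3c* at chr7:126566412-126566511, both on the minus strand, as does *Eif4a1* at chr11:69672424-69672523. *Eif1* lies at chr11:100319785-100319884 on the plus strand.
Eif2s2: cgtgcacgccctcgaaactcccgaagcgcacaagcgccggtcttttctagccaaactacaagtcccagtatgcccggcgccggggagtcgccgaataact
Eif3c: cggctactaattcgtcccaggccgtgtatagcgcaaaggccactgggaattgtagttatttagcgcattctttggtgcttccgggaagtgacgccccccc
Eif1: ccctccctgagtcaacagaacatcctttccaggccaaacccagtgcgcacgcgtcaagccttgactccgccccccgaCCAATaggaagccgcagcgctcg
Eif4a1: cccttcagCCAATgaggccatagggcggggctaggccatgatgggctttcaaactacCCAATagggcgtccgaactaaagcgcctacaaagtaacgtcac
*Eif2s2* and *Eif3c*, the called members with the largest rise, held none of the 4 motifs in these 100 bases. *Eif1* held a CCAAT 87 bases before its RefSeq start, and *Eif4a1* held one at 43 and another at 92.

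Regulators of the initiation factors were counted from a list of 28 genes. In RNA 10 of 28 were called in B6J.*Gtpbp1*-/- (8 higher, 2 lower; 35.7% against 13.8% of all genes; median log2 fold change 0.18) and 7 in B6J-*Gtpbp2*-/- (5 higher, 2 lower; 25% against 8.63%; median 0.13). *Eif4ebp1*, which holds eIF4E away from eIF4G, was at 1.26, 2.25 and 1.13 CPM in B6J, 13.1, 14.0 and 21.7 in B6J.*Gtpbp1*-/-, and 12.4, 17.8 and 14.3 in B6J-*Gtpbp2*-/-. From this low level it rose in every mutant library, by log2 3.40 ± 0.29 SE (adjusted p = 3.01e-05) and 3.26 ± 0.265 SE (adjusted p = 5.16e-05), while *Eif4e* itself was not called. Its footprints rose as well, by log2 3.75 ± 0.543 SE (adjusted p = 0.00676) and 3.05 ± 0.468 SE (adjusted p = 0.00304). *Mknk1*, a kinase of eIF4E, was at 27.0, 25.7 and 29.6 CPM of RNA in B6J, 59.8, 55.1 and 67.2 in B6J.*Gtpbp1*-/-, and 47.2, 69.7 and 65.3 in B6J-*Gtpbp2*-/-. It rose by log2 1.14 ± 0.0986 SE (adjusted p = 7.62e-06) and 1.14 ± 0.136 SE (adjusted p = 6.14e-04), whereas the related *Mknk2* fell by 0.54 and by 0.42.

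Around the alpha subunit of eIF2, the phosphatase subunit *Ppp1r15a* was at 27.8, 29.9 and 22.4 CPM of RNA in B6J, 50.4, 38 and 46.8 in B6J.*Gtpbp1*-/-, and 36.5, 45.0 and 41.7 in B6J-*Gtpbp2*-/-. It rose in both, by log2 0.76 ± 0.126 SE (adjusted p = 0.00145) and 0.62 ± 0.122 SE (adjusted p = 0.0102), with no overlap with B6J. Its footprints were at 2.69, 3.96 and 3.65 CPM in B6J, 10.4, 7.24 and 14.7 in B6J.*Gtpbp1*-/-, and 12.3, 14.0 and 14.5 in B6J-*Gtpbp2*-/-, with a call in B6J-*Gtpbp2*-/- (log2 1.97 ± 0.321 SE, adjusted p = 0.00429). The kinase *Eif2ak2* rose by log2 0.56 and 0.48 in RNA, and *Impact*, an inhibitor of the eIF2 kinase GCN2, by 0.39 and 0.58. *Paip2*, which holds back the poly(A) binding protein, fell by 0.30 and by 0.26 in RNA. *Abce1*, *Bzw1* and *Bzw2* rose in B6J.*Gtpbp1*-/- by log2 0.28, 0.26 and 0.31 and were not called in B6J-*Gtpbp2*-/-.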

How the data were processed

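Gene members and lists were chosen with earlier results of these data known. For RNA, an estimated count and a TPM per transcript, made by the authors with kallisto 0.42.4 on Gencode M20, were deposited. For footprints, a count per gene of reads in coding sequence was deposited, made by the authors with Bowtie2 2.2.3, HISAT2 2.1.0 and featureCounts on mm10 with Gencode M20. Estimated counts were summed per gene and rounded. A gene entered a comparison of 2 genotypes when 3 or more of its 6 libraries held 5 counts or more, and edgeR 4.0.16 (R 4.3.3) ran its robust quasi-likelihood test after TMM scaling, with p adjusted over all genes that entered. CPM had a prior count of 2 where logged. Translation efficiency was the interaction of assay and genotype over 12 libraries (minimum count 10). The tests were tested on simulated data. Only comparisons with B6J were simulated, with changes larger than those of most called members. Counting error and the spread of 3 replicates limit precision, and depth per library is given as a range in the results.

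Named with values in each sample were members called in at least 1 comparison, 8 core subunits (*Eif2s1*, *Eif2s2*, *Eif2s3x*, *Eif2b5*, *Eif4e*, *Eif4a1*, *Eif4a2*, *Eif4g1*), *Gtpbp1*, *Gtpbp2* and *Eif2s3y*. Regulators were named when called in at least 1 comparison with B6J. Alternatives were DESeq2 1.42.0, upper quartile scaling, no filter, filterByExpr, all 9 libraries, a replicate block, sex as a covariate, an offset for effective length, coding transcripts alone and each library left out. Motifs were chosen after the data were seen.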

Additional observations from a re-analysis of the deposited data

How the results depend on the processing

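Directions of the called initiation factors held under all alternatives tried. *Eif2s2* and *Eif3c* in RNA of both mutants and *Eif5* and *Eif5b* in RNA of B6J.*Gtpbp1*-/- passed the threshold in 15 of 15 alternatives, with adjusted p up to 5.71e-04 for *Eif3c* and 0.0419 for *Eif5* in B6J.*Gtpbp1*-/-. In RNA of B6J-*Gtpbp2*-/- the adjusted p went up to 0.0249 for *Eif3c* and 0.013 for *Eif2s2*. *Eif4a1* passed in 14 (adjusted p up to 0.0667), *Eif6* and *Eif1* in 13 in B6J.*Gtpbp1*-/-. Calls close to the threshold passed less often: *Eif1a* 9 of 15, *Eif1b* and *Eif3a* 7, *Eif1ad* and *Eif2d* 6, *Eif3d* 5, and *Eif1* in B6J-*Gtpbp2*-/- 9. In footprints of B6J-*Gtpbp2*-/-, *Eif2s2* and *Eif3c* passed in 11 of 13 and *Eif3a* in 6.

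Counts of called members moved as follows, with the percent of all genes called in the same fit in brackets, and the cause was not tested. For RNA of B6J.*Gtpbp1*-/- (13 members; 13.8%), a replicate block gave 7 (9.1%), sex as a covariate 8 (9.36%), the effective length offset 7 (9.06%), and leaving out 1 library 6 to 10 (8% to 15.8%). For RNA of B6J-*Gtpbp2*-/- (3; 8.63%), DESeq2 gave 10 (13.7%), upper quartile scaling 7 (8.11%), no filter 7 (7.92%), filterByExpr 6 (9.99%), all 9 libraries 8 (11.6%), coding transcripts alone 7 (10.8%), and leaving out 1 library 2 to 11 (3.92% to 9.81%). The sex term there in effect drops B6J replicate 2, its 1 male. For footprints of B6J.*Gtpbp1*-/- (0; 0.745%), DESeq2 gave 1 (2.91%), all 9 libraries 1 (1.45%), and leaving out 1 library 0 to 2 (0.159% to 1.34%). For footprints of B6J-*Gtpbp2*-/- (3; 2.94%), all 9 libraries gave 1 (1.94%), sex as a covariate 0 (0.326%; in effect with B6J replicate 3 as the only control), and leaving out 1 library 1 to 4 (0.779% to 4.54%). For translation efficiency of B6J-*Gtpbp2*-/- (0; 0.00773%), DESeq2 gave 1 (1.24%) and leaving out 1 library 0 to 1 (0% to 1.24%).

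The replicate block has no pairing behind it, since correlations of same-number libraries ran from -0.26 to 0.11. With 3 replicates, 3630823 counts in the smallest footprint library and spread between replicates above counting error, small changes in footprints and efficiency may have been missed.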
